A study of Drosophila melanogaster with 62 samples.

Results

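The mitochondrial ribosomal protein genes are the 72 of 14659 genes in the deposited expression table whose names start with mRpL or mRpS. They were chosen by name alone, and all 72 were also found under the same symbol in RefSeq (Drosophila melanogaster Release 6). Their levels were followed in the fat body of wandering Drosophila melanogaster larvae at the end of the third instar, over 61 RNA-seq libraries in 18 groups. All larvae carried UAS-Dcr2 on the X chromosome, a transgene that strengthens RNAi, and a GAL4 driver. The 4 experiments differed in driver, sex and control stock. In the r4 60100 females, r4-GAL4 was crossed to RNAi stocks 106097 (FOXO), 103001 (p53) and 106980 (Stat92E) or to the VDRC control stock 60100, on 0.7 M and 0.15 M sucrose, with 4 libraries per group and 3 for p53 RNAi at 0.15 M. In the r4 w1118 females, r4-GAL4 was crossed to the control stock w1118, with 3 libraries each at 0.15, 0.3, 0.7 and 1.0 M sucrose. In the cg males, cg-GAL4 was crossed to RNAi stock 12580 (Tfb1) or to w1118, with 3 libraries per group at 1.0 M and 0.15 M. In the cg females, cg-GAL4 was crossed to w1118, with 3 libraries at 0.7 M and 3 at 0.15 M. Male tissue was dissected and female tissue was floated after shearing. Each knockdown rests on 1 RNAi stock, and cg-GAL4 is also active in blood cells.

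Mitochondria keep a small genome that encodes core subunits of the respiratory chain, and a separate ribosome inside the organelle translates it. The RNA of that ribosome comes from the mitochondrial genome, whereas its proteins are made from nuclear genes in the cytosol and imported. A part of these proteins descends from bacterial ribosomal proteins, and others were added during the evolution of mitochondria. The larval fat body stores fat and glycogen and secretes the proteins of the blood, and its mitochondria supply the citrate from which fat is made.

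Of the 72 genes, 46 encode proteins of the large subunit and 26 of the small subunit. By their numbers, 42 fall in the range used for bacterial ribosomal proteins and 30 lie beyond it. They are spread over the chromosome arms, with 12 on 2L, 12 on 2R, 17 on 3L, 20 on 3R and 11 on X. Their transcripts are short, with a median length of 739.5 bases (327 to 1953.5) against 1681.5 bases over all genes with a length in the Ensembl BDGP6 annotation. The exons of 42 overlap those of another gene in that annotation, on the opposite strand in 41 cases and on the same strand in 3 (mRpS14, mRpL13 and mRpL53). Whether the counting used strand is not given in the sources used here, so reads of such overlaps cannot be assigned with certainty. The name pattern leaves out tko (the mitochondrial S12 protein), bonsai (S15), and Rlc1 (now mRpL47).

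Values are scaled FPKM, fragments per kilobase of transcript in a relative unit that holds within an experiment, so levels of genes can be compared per length but not between experiments. On this scale the mitochondrial ribosomal protein genes were low. The median member mean was 0.83 in r4 60100 females, 0.478 in r4 w1118 females, 0.456 in cg males and 0.326 in cg females. The cytosolic ribosomal protein genes, 81 genes found by their names, had median means of 135.0, 89.7, 56 and 67.6 in the same order. Of all genes, 19.1%, 23.2%, 31.7% and 29% had a higher mean than the median member. A mean of at least 1 was reached by 27, 9, 7 and 3 of the 72, and a mean of at least 0.25 by 67, 53, 59 and 41. In each experiment 71 of 72 were above 0 in at least 1 library.

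The order of the members is given within each experiment, since the unit differs between them. mRpL36, whose bacterial homologue is a small zinc-binding protein of the large subunit, was the highest of the 72 in r4 60100 females (mean 7.94) and in r4 w1118 females (2.28), but ranked 19 in cg males (0.764) and 20 in cg females (0.48). In cg males the highest was mRpS7 of the small subunit (1.71), and in cg females mRpL33, a short protein of the large subunit (1.21). mRpL42, a protein particular to mitochondria, ranked 2 in r4 60100 females (3.01), 4 in r4 w1118 females (1.26), 4 in cg males (1.33) and 11 in cg females (0.638). mRpL22, of the kind that lines the exit tunnel for the new protein, ranked 3 in both r4 experiments (2.81 in 60100 and 1.46 in w1118 females), 11 in cg males and 4 in cg females. mRpL23, also at the exit tunnel, ranked 7, 2, 9 and 12 in r4 60100 females, r4 w1118 females, cg males and cg females, and mRpS9 of the small subunit ranked 8, 7, 8 and 6. These levels rank genes within the table and do not rank the proteins. At the low end, mRpL53 was listed at 0 in all 61 libraries, and 100% of its exon bases overlap other genes. The mean of mRpS11, a small-subunit protein, lay between 0.00631 and 0.0277 in the 4 experiments, and that of mRpL48 between 0.00947 and 0.257. The paralogs mRpS18A, mRpS18B and mRpS18C, related proteins of the small subunit, had means of 0.84, 0.53 and 0.68 in r4 60100 females and of 0.62, 0.729 and 0.52 in cg males.

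The order of genes was not the same in every experiment. The mean of mRpS5, a protein at the entry of the messenger channel, was 1.63 in cg males and 1.02 in cg females but 0.16 in r4 60100 females. For mRpL33 it was 1.26, 1.21 and 0.319 in the same experiments. The reverse held for mRpL9, whose mean was 1.65 in r4 60100 females, 0.156 in cg males and 0.00124 in cg females, but mRpL9 was also near 0 in r4 w1118 females (0.000665). mRpL9 also fell close to 0 in single libraries of otherwise high groups.

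**Figure D1:**
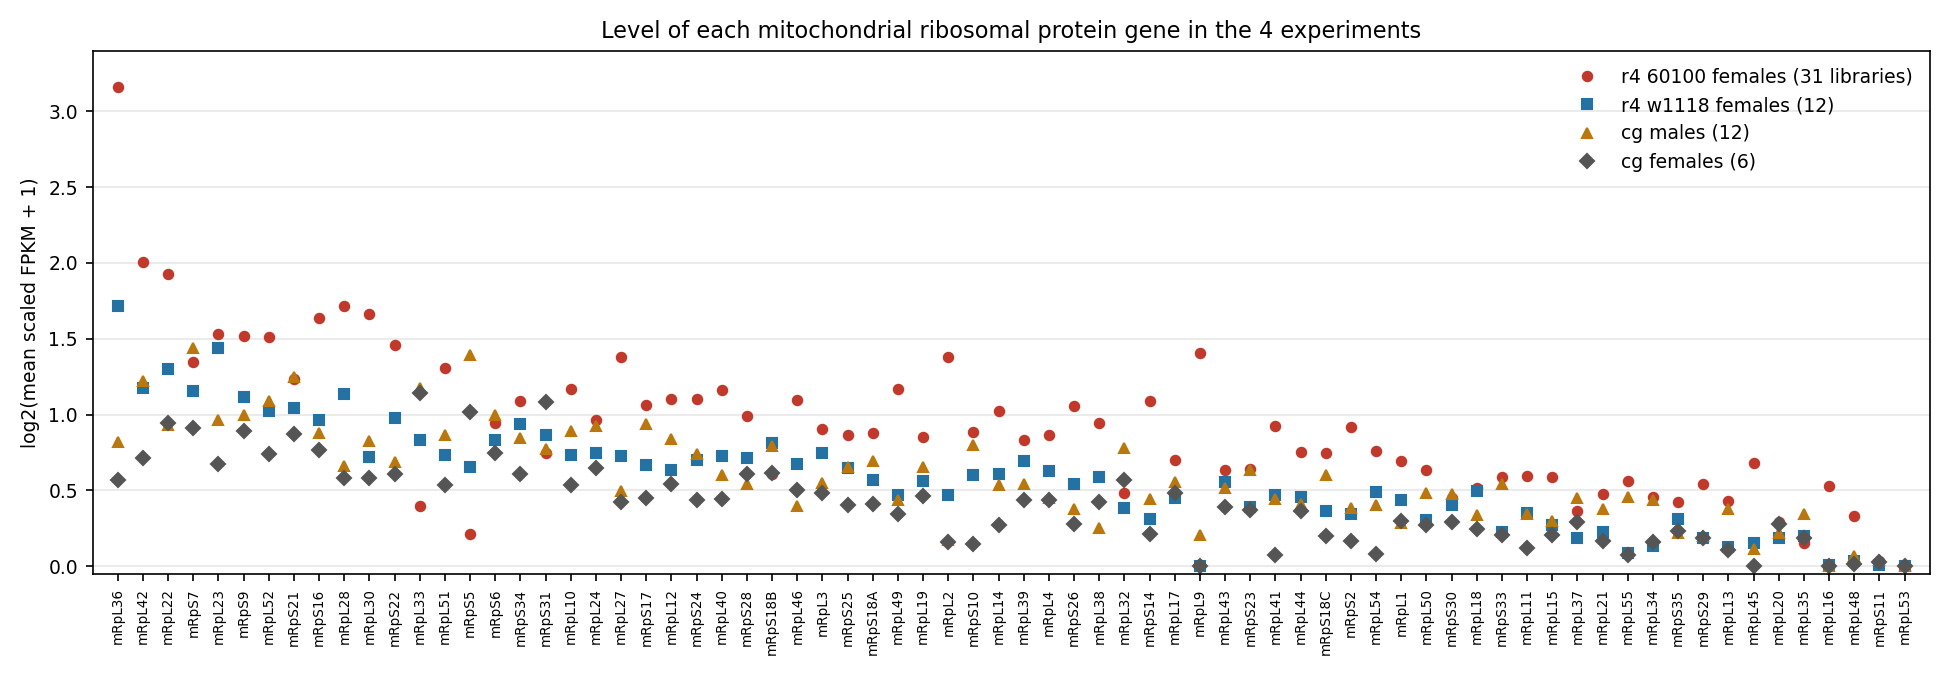
Mean level of each mitochondrial ribosomal protein gene in the 4 experiments, as log2 of mean scaled FPKM + 1 (y axis), with genes on the x axis sorted by their average over experiments for display only; each point is 1 gene in 1 experiment. mRpL36 stands highest at 7.94 scaled FPKM in r4 60100 females, and mRpL53 lies at 0 in all experiments.

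Libraries were shallow for these genes. The level of a single fragment was estimated in each library from the steepest rise in the distribution of low values multiplied by transcript length. A member of median length at a level of 1 would then have 5.87 to 23.4 fragments in r4 60100 females, from 2.94 up to 9.31 in r4 w1118 females, 1.86 to 7.40 in cg males and 3.71 to 5.87 in cg females. Values far below that level also occur, such as 0.000669 for mRpL9 in 60100 controls at 0.15 M, library 4. Values summed to between 40340 and 76930 per library in r4 60100 females, and to between 25090 and 59270 in the other experiments. One library of Tfb1 RNAi at 0.15 M, library 2, had 39 members at 0, and the other libraries of the cg males had fewer. The targeted transcripts were at 73.4% (1.0 M) and 57% (0.15 M) of control for Tfb1, 65% (0.7 M, with overlap between libraries) and 56.9% for foxo, 62.2% and 71.6% for p53, and 23.8% and 16.5% for Stat92E. Several of these transcripts were low in the controls themselves. Their control means, in the same order of diets, were 0.608 and 0.819 for Tfb1, 0.31 and 0.599 for foxo, 0.226 and 0.126 for p53. Those percentages thus rest on low values. Fat body markers, such as storage proteins, summed to 6562 to 14980 in r4 60100 females, against 4.2 to 305.5 for gut markers and 7.73 to 80.8 for muscle markers. Salivary gland markers summed to 86.6 to 750.2 in these libraries. In cg males they summed to 1166 to 3216, against 1664 to 11080 for fat body markers. Gut marker lambdaTry was at 0 in all r4 60100 female libraries, and no other marker of gut or muscle was. Separate animals for each library are not stated in the labels, so the p-values speak only of variation among these libraries, which may be technical. In such bulk samples fewer cells of a type and less RNA per cell cannot be told apart.

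The set mean, the average of log2(scaled FPKM + 1) over all 72 genes with no filter, was the first measure compared between groups. Values below are means ± SD over the libraries of a group. In r4 60100 females at 0.7 M it was 0.78 ± 0.08 in FOXO RNAi, 1.03 ± 0.01 in p53 RNAi, 1.01 ± 0.04 in Stat92E RNAi and 0.89 ± 0.14 in controls. At 0.15 M it was 0.93 ± 0.07 in FOXO RNAi, 0.85 ± 0.07 in p53 RNAi, 0.91 ± 0.01 in Stat92E RNAi and 0.78 ± 0.02 in controls. The order of the 8 groups from the top was p53 and Stat92E RNAi at 0.7 M, FOXO and Stat92E RNAi at 0.15 M, controls at 0.7 M, p53 RNAi at 0.15 M, controls at 0.15 M and FOXO RNAi at 0.7 M. Each group overlapped its neighbour in that order, so the order of neighbours is not beyond their spread. Controls at 0.7 M spread most, from 0.785 to 1.091, with library 2 at the top.

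High sugar went with a lower set mean in FOXO RNAi and a higher one in the other r4 60100 females. The difference of 0.7 M minus 0.15 M was -0.15 in FOXO RNAi, 0.18 in p53 RNAi, 0.09 in Stat92E RNAi and 0.11 in controls. The libraries of the diets did not overlap in p53 RNAi (1.007 to 1.041 at 0.7 M, 0.786 to 0.916 at 0.15 M) or in Stat92E RNAi (0.958 to 1.044 at 0.7 M, 0.895 to 0.930 at 0.15 M), and they overlapped in FOXO RNAi and in controls. Against controls at 0.15 M, the set mean was 0.14 higher in FOXO RNAi, 0.06 higher in p53 RNAi and 0.13 higher in Stat92E RNAi. These 3 differences share their controls, and the libraries did not overlap for FOXO and Stat92E. At 0.7 M the differences from controls were -0.12, 0.13 and 0.11, with overlap in each case. No p-value is given for the set mean. With the trend on transcript length removed, these differences were smaller or turned: -0.09 in FOXO RNAi, 0.08 in p53 RNAi, 0.09 in Stat92E RNAi and -0.03 in controls for diet. For RNAi at 0.15 M the set mean differences were then 0.04, -0.04 and -0.04, and at 0.7 M -0.01, 0.08 and 0.09, for FOXO, p53 and Stat92E. Another measure was the summed level of the members as a share of the library total, in per mille. At 0.7 M it was 1.27 ± 0.10 in FOXO RNAi against 1.08 ± 0.16 in controls, opposite in sign to the set mean, with overlap. In p53 and Stat92E RNAi at 0.7 M it was 1.475 and 1.275, higher as for the set mean. Library totals averaged 67230 in those controls but 49830 with FOXO RNAi at 0.7 M. Differences in this share were not tested.

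In the other experiments the groups overlapped in every comparison of the set mean. In r4 w1118 females it averaged 0.50 ± 0.12 on 0.15 M, 0.58 ± 0.08 on 0.3 M, 0.55 ± 0.08 on 0.7 M and 0.60 ± 0.02 on 1.0 M sucrose. In cg males it was 0.61 ± 0.02 in Tfb1 RNAi and 0.58 ± 0.05 in controls at 1.0 M, and 0.56 ± 0.13 in Tfb1 RNAi and 0.54 ± 0.06 in controls at 0.15 M. In cg females it was 0.403 ± 0.039 at 0.7 M and 0.404 ± 0.069 at 0.15 M. With the length trend removed, the differences of 0.3 M and 0.7 M from 0.15 M in r4 w1118 females turned to -0.09 and -0.07. In cg males the members' share of the total was higher in Tfb1 RNAi than in controls, with no overlap. It was 0.89 to 1.26 against 0.70 to 0.77 per mille at 0.15 M, and 1.48 to 1.56 against 1.12 to 1.28 at 1.0 M. At 1.0 M it was above 0.15 M in each male genotype, without overlap. In cg females it was lower at 0.7 M (0.58 to 0.63) than at 0.15 M (0.67 to 0.97). In r4 w1118 females it overlapped. Male library totals at 0.15 M averaged 49980 for controls but 34660 for Tfb1 RNAi.

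**Figure D2:**
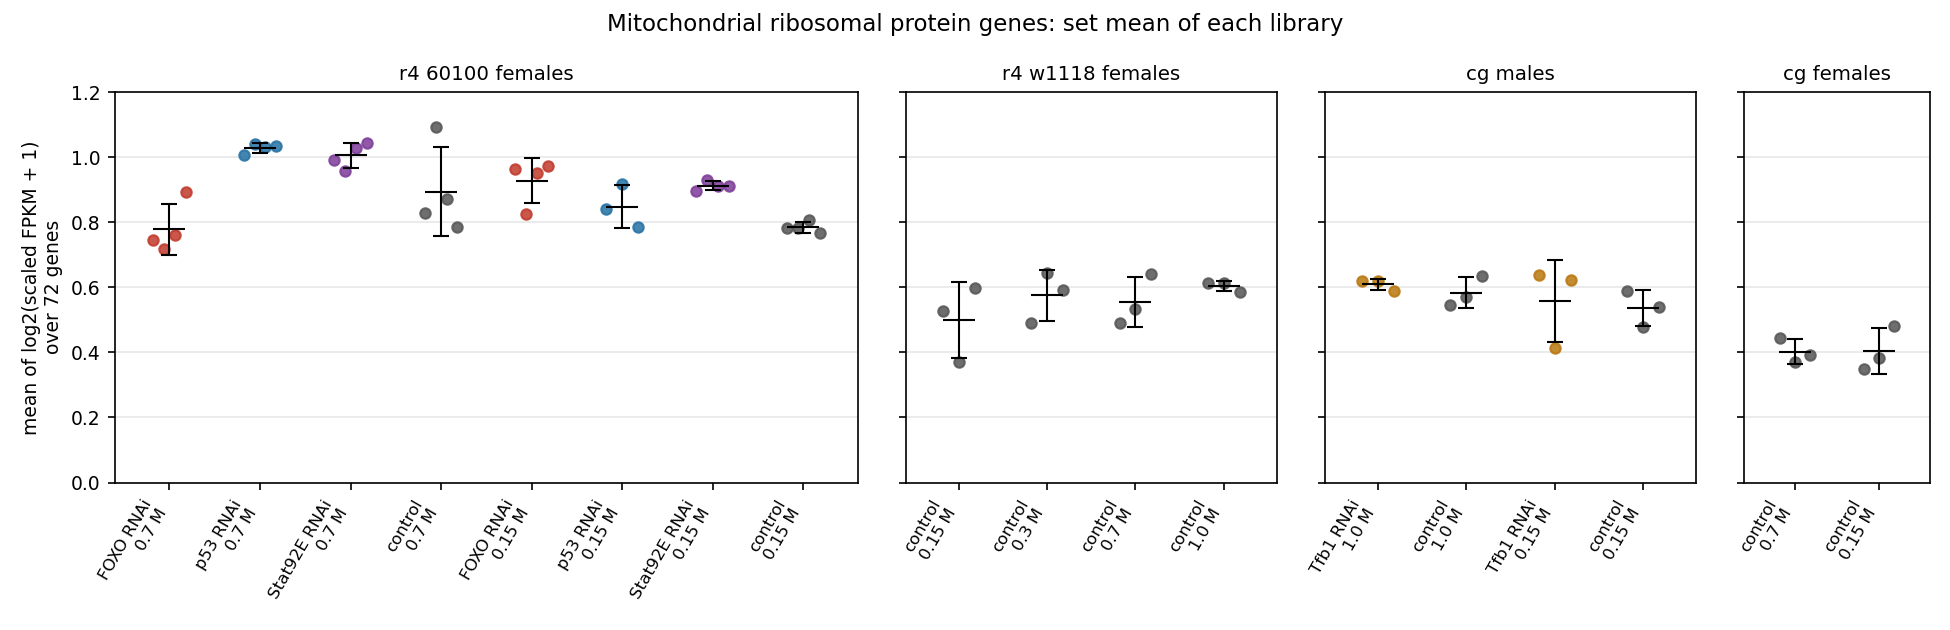
Set mean of the 72 mitochondrial ribosomal protein genes in each library (y axis, mean of log2 scaled FPKM + 1) by group (x axis), 1 panel per experiment; points are libraries, and horizontal marks with bars are group means ± SD. In r4 60100 females FOXO RNAi at 0.7 M averages 0.78 and p53 RNAi at 0.7 M averages 1.03; levels are comparable within a panel only.

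Single genes were tested with limma if their mean level over an experiment reached 1, with calls made where the adjusted p was below 0.05. Each change is given on the log2(scaled FPKM + 1) scale, which understates the change of low genes, with its standard error. Over the 22 comparisons, 45 calls fell on 22 members, and 14 of the 45 held when each library was left out in turn. The members called most often were mRpL46 (5 comparisons) and mRpL49 (4), followed by mRpL51, mRpS16 and mRpS22 (3 each). Many comparisons share groups, so repeated calls of a gene are not separate results. The mRpL46 calls in controls by diet, in FOXO RNAi at 0.7 M and in the FOXO difference used the same controls at 0.7 M. Those of mRpL49 in FOXO and Stat92E RNAi at 0.15 M also shared controls. The share of all genes called is given with each comparison below.

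For a minority of the tested members the effect of FOXO RNAi differed between the diets. Of the 27 tested members 6 were called lower in the difference of the FOXO effect, 0.7 M minus 0.15 M, and none higher, which is 22.2% against 7.54% of all genes tested. The median change of that difference was -0.33 over the 27 and -0.11 over all genes, and after removal of the length trend it was -0.04 over the 27 and -0.02 over all genes. FOXO is the transcription factor that insulin signalling holds back, and its knockdown was set against controls on both diets.

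mRpL46, a large-subunit protein particular to mitochondria, had the smallest adjusted p of the 27. Its values were 0.558, 0.597, 0.712 and 1.03 scaled FPKM in FOXO RNAi at 0.7 M, against 1.09, 2.03, 1.23 and 0.894 in controls. At 0.15 M it had 1.09, 0.862, 0.984 and 1.15 in FOXO RNAi, against 0.774, 0.645, 0.805 and 0.665 in controls. FOXO RNAi libraries were thus above every control library at 0.15 M, and at 0.7 M 3 of 4 were below every control. The difference of the effects was -0.64 ± 0.15 (adjusted p = 0.00796). mRpL51, another large-subunit protein, had 1.02, 0.834, 1.01 and 1.44 in FOXO RNAi at 0.7 M, against 1.34, 2.2, 1.46 and 0.991 in controls. At 0.15 M it had 1.53, 1.35, 1.93 and 1.78 in FOXO RNAi, against 1.18, 1.07, 1.07 and 1.04 in controls, with no overlap. Its difference of effects was -0.59 ± 0.15 (adjusted p = 0.0106). mRpL52, also particular to mitochondria, differed by -0.57 ± 0.15 (adjusted p = 0.0123). The largest change was that of mRpL9, at -1.09 ± 0.34 (adjusted p = 0.0342), which rests in part on single libraries near 0 (0.00136 in FOXO RNAi at 0.7 M, library 1, and 0.000669 in controls at 0.15 M, library 4). The calls of mRpL46, mRpL51 and mRpL52 held in all 16 fits that left out 1 library, whereas mRpL9 stayed called in 9 of the 16 and was lost without either near-0 library. The small-subunit gene tko, outside the name pattern, moved the same way (-0.54 ± 0.13, adjusted p = 0.00866).

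The count of 6 was 3 without library 1 or 3 of FOXO RNAi at 0.15 M or library 2 of controls at 0.7 M. It was 15 without library 2 of FOXO RNAi at 0.15 M, 12 without library 4 of controls at 0.7 M and 11 without library 4 of FOXO RNAi at 0.7 M. With the length trend removed 2 members were called lower, where 114 of 2521 genes were (190 before). mRpL51 and mRpL52 were then not among the members called (-0.28 and -0.23). With genes of a mean of at least 0.25, a filter added after the data were seen, 10 of 67 members were lower, 14.9% against 5.36% of genes. In this difference 3 of 7 tested gut markers were also lower (median -2.11), while none of 8 muscle, 5 salivary gland and 10 fat body markers was called. Their part in the result was not tested.

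At 0.15 M, 4 of the 27 were called higher in FOXO RNAi than in controls and none lower, 14.8% against 6.58% of genes, with median changes of 0.20 and 0.02 (0.08 and 0.02 with the length trend removed). mRpL49, a large-subunit protein particular to mitochondria, had 1.62, 0.886, 1.47 and 1.6 in FOXO RNAi, against 0.866, 0.674, 0.866 and 0.622 in controls. All 4 RNAi libraries were above all controls, library 2 narrowly (change 0.44 ± 0.12, adjusted p = 0.00981). mRpS16, a protein of the body of the small subunit, changed by 0.35 ± 0.12, mRpL51 by 0.34 ± 0.11 and mRpS17, which also lies in the body, by 0.29 ± 0.09. With the length trend removed the count was 2, where 230 of 2521 genes were higher (166 before). mRpL51, mRpS16 and mRpS17 were then not called. The count was 2 without library 1 of FOXO RNAi or library 3 of controls, 1 without library 4 of FOXO RNAi and 11 without library 2 of FOXO RNAi. With the 0.25 filter 7 of 67 were higher, 10.45% against 5.02% of genes. Markers of other tissues moved in the same comparison: 3 of 7 gut markers were higher (summed level 91.3 to 306 in FOXO RNAi, 4.2 to 94.8 in controls), 5 of 5 salivary gland markers were lower (86.6 to 133 against 156 to 562), and 6 of 10 fat body markers were lower (7840 to 9640 against 13900 to 15000). Their part in the result was not tested.

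At 0.7 M, 3 of the 27 were lower in FOXO RNAi than in controls and none higher, 11.1% against 17.0% of genes. The median change was -0.13 over the members and -0.13 over all genes, and -0.02 over both with the length trend removed. mRpL46 led (-0.41 ± 0.11, adjusted p = 0.0057), with the values given above. mRpL10, a protein of the ribosomal stalk that recruits translation factors, had 0.77, 0.643, 0.861 and 1.18 in FOXO RNAi, against 1.31, 1.64, 1.46 and 0.941 in controls (-0.32 ± 0.11, adjusted p = 0.0268). Of the 4 RNAi libraries of mRpL10, 3 were below every control. mRpS34, particular to mitochondria, changed by -0.23 ± 0.08. The count was 1 after rescaling by the median ratio or without library 2 of FOXO RNAi, 5 without library 4 of controls and 7 without library 4 of FOXO RNAi. After rescaling 279 of all genes were lower, against 429 before. With the 0.25 filter 4 of 67 were lower, against 11.2% of genes. Of 7 gut markers 2 were lower in this comparison (34.1 to 63 in FOXO RNAi, 45.3 to 112 in controls), and of 10 fat body markers 5 were lower and 1 higher (6560 to 7890 against 9510 to 13200); their part was not tested.

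Within FOXO RNAi, 7 of the 27 were lower at 0.7 M than at 0.15 M and none higher, 25.9% against 20.7% of genes, with medians of -0.16 and -0.05 (-0.09 and -0.06 with the length trend removed). The clearest was mRpS7, a protein of the head of the small subunit, with 1.25, 1.26, 1.07 and 1.07 at 0.7 M, against 1.67, 1.85, 1.91 and 2.06 at 0.15 M. The diets did not overlap (-0.41 ± 0.08, adjusted p = 0.000235), and the call held with each library left out. mRpL52 had 1.48, 1.14, 1.2 and 1.29 at 0.7 M, against 2.15, 1.5, 2.4 and 2.02 at 0.15 M, again with no overlap (-0.40 ± 0.10, adjusted p = 0.00353). mRpL51 changed by -0.35 ± 0.11 and mRpS16 by -0.30 ± 0.12, and the other 3 by -0.24 to -0.21. By subunit, 3 of 17 large-subunit and 4 of 10 small-subunit members were lower.

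The size of this count depended on the scaling. Dividing each library by its median ratio moved the median of all genes from -0.05 to 0.06, and 2 members were then called higher and 2 lower. Of all genes 570 were then higher and 312 lower, against 451 and 521 before. With the length trend removed 1 member was higher and 4 lower, where 472 and 564 of 2521 genes were. The count was 4 without library 1 or 3 of FOXO RNAi at 0.15 M and 3 without library 4 of that group or library 2 of FOXO RNAi at 0.7 M. With the 0.25 filter 18 of 67 were lower, 26.9% against 18.6% of genes. In the same comparison 8 of 8 muscle markers were higher (32.6 to 64.2 at 0.7 M, 7.73 to 17.8 at 0.15 M) and gut markers summed to 34.1 to 63 at 0.7 M and 91.3 to 306 at 0.15 M, with 2 of 7 higher and 2 lower. Of 5 salivary gland markers 4 were higher, and of 10 fat body markers 3 were higher and 5 lower, while 1 of 2 blood cell markers was higher. Their part in the result was not tested.

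**Figure D3:**
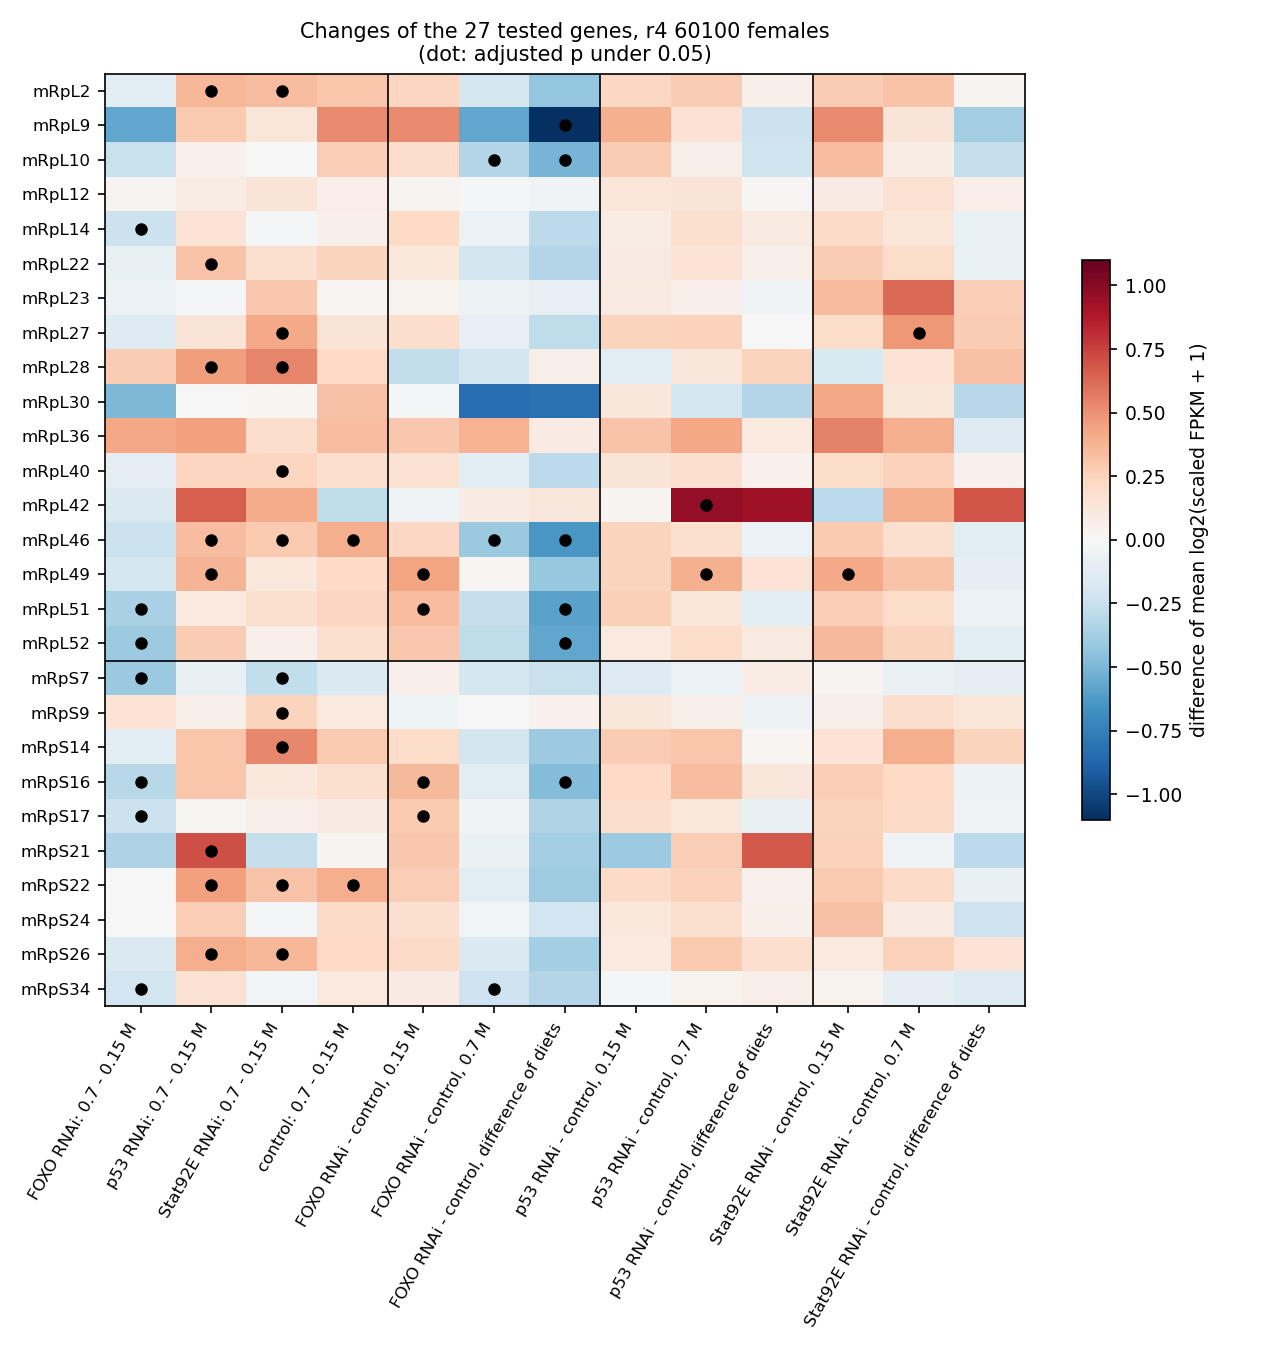
Changes of the 27 tested mitochondrial ribosomal protein genes (y axis, large subunit above the line and small subunit below) in the 13 comparisons of r4 60100 females (x axis); colour is the difference of mean log2(scaled FPKM + 1), red higher and blue lower, and dots mark adjusted p under 0.05. The column of the FOXO difference between diets is above 0 for 4 of 27 genes and holds 6 dots, all in blue cells.

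In p53 RNAi, 8 of the 27 were higher at 0.7 M than at 0.15 M and none lower, 29.6% against 21.1% of genes, with medians of 0.28 and 0.06 (0.12 and 0.03 with the length trend removed). The factor p53 controls responses to DNA damage and nutrient stress. mRpS22, a small-subunit protein particular to mitochondria, had 2.27, 2.51, 1.89 and 2.89 at 0.7 M, against 1.51, 1.42 and 1.48 at 0.15 M. The diets did not overlap (0.45 ± 0.12, adjusted p = 0.00623), and the call held without each library in turn. mRpS26, likewise particular to mitochondria, had 1.49, 1.53, 1.37 and 1.7 at 0.7 M, against 0.993, 1.11 and 0.656 at 0.15 M (0.40 ± 0.12, adjusted p = 0.0133). mRpL28, a large-subunit protein, changed by 0.46 ± 0.18. mRpS21, of the small subunit, changed most (0.71 ± 0.22, adjusted p = 0.0157), but library 3 at 0.15 M had 0.00176 and the others 1.11 and 1.14. Without that library mRpS21 was not called and 1 member was. The count was 5 without library 1 at either diet and 4 without library 4 at 0.7 M. After rescaling it was 14, with the median of all genes at 0.17 and 708 genes higher, against 533 before. With the 0.25 filter 13 of 67 were higher, 19.4% against 15.3% of genes. In this comparison 7 of 8 muscle markers were higher (39.9 to 69 at 0.7 M, 14.7 to 16.7 at 0.15 M), 2 of 7 gut markers were higher, and 5 of 10 fat body and 1 of 2 blood cell markers were lower, and their part was not tested. The 3 columns of p53 RNAi at 0.15 M are headed in the style of the male columns, unlike the rest of the r4 60100 females, and whether they were handled apart cannot be told from the headings.

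In Stat92E RNAi, 9 of the 27 were higher and 1 lower at 0.7 M than at 0.15 M, where 20.6% of genes were higher and 15.2% lower; the medians were 0.17 and 0.06. Stat92E acts at the end of JAK/STAT signalling, where it binds DNA. mRpS14, a protein of the head of the small subunit whose exons overlap another gene on the same strand, had 2.01, 1.46, 1.77 and 1.79 at 0.7 M, against 1.06, 0.641, 1.07 and 0.902 at 0.15 M. The diets did not overlap (0.53 ± 0.14, adjusted p = 0.00635). mRpL27, which lies near the peptidyl transferase centre in bacteria, had 2.38, 2.38, 2.1 and 2.57 at 0.7 M, against 1.57, 1.29, 1.67 and 1.56 at 0.15 M (0.41 ± 0.12, adjusted p = 0.00963), also with no overlap. mRpL28 changed by 0.54 ± 0.17 and mRpS26 by 0.36 ± 0.11. The lower member was mRpS7, with 1.47, 1.31, 1.26 and 1.35 at 0.7 M, against 1.52, 2.11, 2.07 and 1.67 at 0.15 M (-0.27 ± 0.08, adjusted p = 0.011), again with no overlap. The count of 10 was 4 without library 2 at 0.15 M, 6 without library 4 at 0.15 M or library 2 at 0.7 M, and 5 without library 4 at 0.7 M. With the 0.25 filter 9 of 67 were higher and 2 lower, against 16.0% and 13.5% of genes. Muscle markers were higher here too, in 6 of 8 cases (39.5 to 76.4 at 0.7 M, 15.3 to 34.3 at 0.15 M), with 4 of 10 fat body markers lower and 1 higher, and their part was not tested.

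In r4 60100 controls, 2 of the 27 were higher at 0.7 M and none lower, 7.41% against 18.7% of genes. The medians were 0.21 and 0.11, and -0.02 and -0.00 with the length trend removed. mRpL46, with 1.09, 2.03, 1.23 and 0.894 at 0.7 M against 0.774, 0.645, 0.805 and 0.665 at 0.15 M, changed by 0.40 ± 0.11 (adjusted p = 0.00691). mRpS22 had 1.62, 2.41, 1.94 and 1.42 at 0.7 M, against 1.15, 1.07, 1.09 and 1.25 at 0.15 M (0.40 ± 0.11, adjusted p = 0.00933). Neither gene overlapped between diets. Leaving out library 2 at 0.7 M gave 1 call, and leaving out library 4 at 0.7 M gave 10. Rescaling gave 6, with the median of all genes at 0.21 and 679 genes higher, against 471 before. With the length trend removed 1 was higher and 1 lower, where 376 and 443 of 2521 genes were, and mRpL46 was then not called. With the 0.25 filter 4 of 67 were higher and 1 lower, against 12.6% and 15.4% of genes. All 8 muscle markers were higher (23.4 to 80.8 at 0.7 M, 12.3 to 18.5 at 0.15 M), as were 3 of 7 gut markers (45.3 to 112 against 4.2 to 94.8), while of 10 fat body markers 2 were higher and 4 lower, and their part was not tested.

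**Figure D4:**
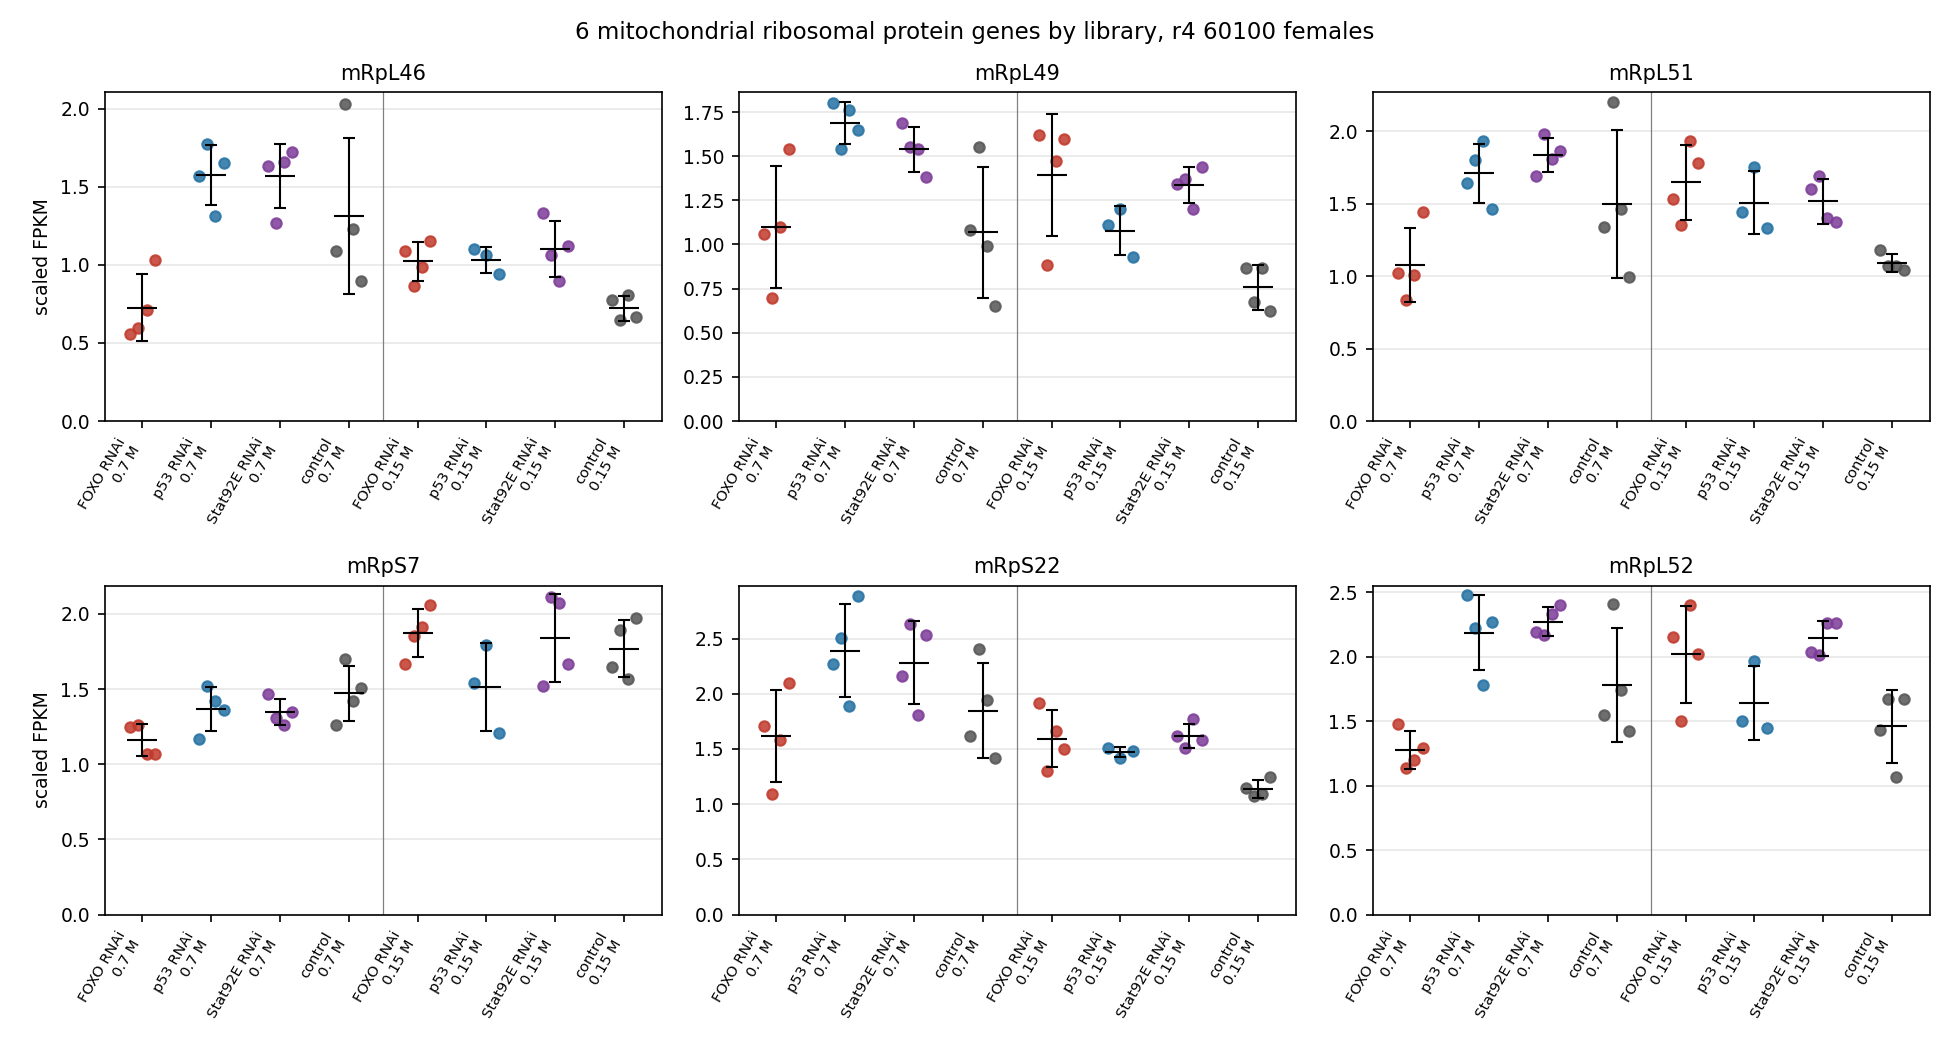
Scaled FPKM (y axis) of 6 mitochondrial ribosomal protein genes in each library of r4 60100 females, by RNAi and sucrose (x axis; 0.7 M left of the vertical line, 0.15 M right of it); points are libraries, marks with bars are means ± SD. mRpL46 in FOXO RNAi at 0.7 M lies between 0.558 and 1.03, and in p53 and Stat92E RNAi at 0.7 M between 1.27 and 1.77.

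Knockdown of p53 and Stat92E against the same controls gave few calls. In p53 RNAi at 0.15 M none of 27 members was called by limma, where 2.14% of genes were, and 4 members had an unadjusted p under 0.05. The largest changes were those of mRpS21 (-0.40) and mRpL9 (0.39), both resting on a library near 0. In p53 RNAi at 0.7 M 2 were higher and none lower, 7.41% against 4.60% of genes. mRpL42 had 5.47, 4.12, 4.9 and 6 in p53 RNAi, against 1.42, 3.63, 1.12 and 2.98 in controls (0.96 ± 0.31, adjusted p = 0.04). mRpL49 had 1.8, 1.54, 1.76 and 1.65 in p53 RNAi, against 1.08, 1.55, 0.991 and 0.653 in controls (0.39 ± 0.12, adjusted p = 0.0267). The mRpL42 libraries did not overlap, and those of mRpL49 overlapped only with control library 2. The count was 11 without that control library, 1 without control library 3 or p53 RNAi library 2, and 0 without control library 1 or 4 or p53 RNAi library 1, 3 or 4. With the length trend removed it was 1, where 203 of 2521 genes were higher (116 before). Of 10 fat body markers 7 were lower in p53 RNAi at 0.7 M (6780 to 8140, against 9510 to 13200 in controls), and their part was not tested. For the difference of the p53 effect between diets none was called by limma, where 0.278% of genes were; 2 members had an unadjusted p under 0.05, and mRpL42 (0.94) and mRpS21 (0.67) changed most.

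In Stat92E RNAi at 0.15 M 1 member was higher, 3.70% against 1.47% of genes. It was mRpL49, with 1.34, 1.37, 1.2 and 1.44 in Stat92E RNAi, against 0.866, 0.674, 0.866 and 0.622 in controls (0.41 ± 0.12, adjusted p = 0.0487). The groups did not overlap, yet the call was lost with any 1 of the 8 libraries left out (count 0), after rescaling and with the length trend removed. At 0.7 M 1 member was higher, 3.70% against 6.70% of genes. mRpL27 had 2.38, 2.38, 2.1 and 2.57 in Stat92E RNAi, against 1.46, 1.77, 1.38 and 1.09 in controls, with no overlap (0.48 ± 0.12, adjusted p = 0.0139). The count was 10 without control library 2 and 0 without control library 4. With the length trend removed the count was 3, where 281 of 2521 genes were higher (169 before). Of 10 fat body markers 5 were lower here (7800 to 10400, against 9510 to 13200 in controls), and their part was not tested. For the difference between diets none was called by limma, where 0.238% of genes were; 0 members had an unadjusted p under 0.05, and mRpL42 (0.69) and mRpL9 (-0.39) changed most.

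In r4 w1118 females 9 members were tested along the sucrose series. mRpL22 had 1.04, 0.787 and 1.31 on 0.15 M, 1.82, 1.77 and 1.96 on 0.3 M, 1.35, 1.12 and 1.8 on 0.7 M, then 1.6, 1.42 and 1.52 on 1.0 M. At 0.3 M it was the 1 member of 9 called higher, against 6.34% of genes, with no overlap (0.49 ± 0.13, adjusted p = 0.0463). That call was lost (count 0) with the length trend removed, without any library of 0.15 M and without library 2 or 3 of 0.3 M. With the 0.25 filter mRpL22 was not among the members called. Gut markers summed to 17.1 to 48.1 at 0.3 M and 49.3 to 135 at 0.15 M, and their part was not tested. At 0.7 M and at 1.0 M none of the 9 was called by limma, where 14.3% and 17.2% of genes were; 1 and 3 members had an unadjusted p under 0.05. The largest change at both diets was that of mRpL28, at 0.93 (adjusted p = 0.0945) and 0.70, followed by mRpL42, at -0.27 and -0.49. Without library 3 of 0.15 M, 1 member was called at 0.7 M. mRpL28 had 0.123, 0.175 and 1.24 on 0.15 M, 0.183, 1.79 and 1.51 on 0.3 M, 1.4, 2.08 and 1.76 on 0.7 M, then 1.81, 1.55 and 0.79 on 1.0 M, so its spread was wide at the lower diets.

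In cg females none of the 3 tested members was called by limma at 0.7 M against 0.15 M, where 39.7% of genes were, and 0 had an unadjusted p under 0.05. mRpS31, a protein particular to mitochondria, had 0.607, 0.471 and 1.65 at 0.7 M, against 2.14, 0.418 and 1.41 at 0.15 M (change -0.26). mRpS5 changed by 0.08. In both genes the diets overlapped.

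In cg males none of the 7 tested members was called by limma in any of the 5 comparisons. All genes were called in 28.3% of cases for 1.0 M against 0.15 M in controls, in 14.1% for the same diets in Tfb1 RNAi, in 36.2% for Tfb1 RNAi against controls at 0.15 M, in 24.1% at 1.0 M and in 8.41% for the difference between diets. Members with an unadjusted p under 0.05 numbered 0 in controls and 1 in each of the other 4. Tfb1 is a subunit of TFIIH, a general transcription and DNA repair factor. mRpS21 had 0.00177, 1.6 and 0.00166 in Tfb1 RNAi at 1.0 M, against 1.24, 1.61 and 2.23 in controls at 1.0 M (-0.95 ± 0.32, adjusted p = 0.0517). At 0.15 M it had 1.76, 1.61 and 1.78 in Tfb1 RNAi, so the diet change in Tfb1 RNAi was -0.98 (adjusted p = 0.0688) and the difference between diets -1.05. In 2 of the 3 libraries of Tfb1 RNAi at 1.0 M mRpS21 was near 0, and 48% of the exon bases of mRpS21 overlap a gene on the opposite strand. Without library 2 of Tfb1 RNAi at 1.0 M, 1 member was called lower in each of these 3 comparisons. Other large changes were 0.53 for mRpL33 between diets in Tfb1 RNAi, 0.45 and 0.38 for mRpL42 in Tfb1 RNAi at 1.0 M and 0.15 M, 0.37 for mRpS6 at 0.15 M, 0.38 for mRpL33 in the difference between diets, and 0.17 for mRpS6 and 0.15 for mRpL33 between diets in controls. None of these passed the test. At 0.15 M 1 member was called higher without library 3 of Tfb1 RNAi. At 1.0 M, 5 of 6 salivary gland markers were lower in Tfb1 RNAi (1170 to 1730, against 2340 to 2480 in controls), as were 6 of 10 fat body markers (1660 to 2210 against 2870 to 4510), and 2 of 2 blood cell markers were higher (5.78 to 8.27 against 3.37 to 3.59). Salivary gland markers were thus near the fat body markers in level in these libraries. Their part in the values of mRpS21 was not tested.

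Cytosolic ribosomal protein genes and the mitochondrial ones were set side by side in the same libraries. In r4 60100 females the set mean difference between diets was -0.15 for the mitochondrial and -0.07 for the cytosolic genes in FOXO RNAi, 0.18 and 0.13 in p53 RNAi, 0.09 and 0.07 in Stat92E RNAi, and 0.11 and 0.23 in controls. The signs were thus alike. In cg females the differences were -0.00 for the mitochondrial and 0.34 for the cytosolic genes. Of 74 cytosolic genes tested in cg females 28 were higher and none lower, where 27.5% of all genes were higher. Fat body markers were higher (6 of 10) and blood cell markers lower (5 of 5) in cg females, and their part was not tested. In Tfb1 RNAi against controls at 0.15 M the differences were 0.02 and -0.46. There 52 of 77 tested cytosolic genes were lower and none higher, where 25.8% of all genes were lower, and 9 of 10 fat body markers were lower too (4630 to 5360 in Tfb1 RNAi, 9400 to 11100 in controls). The part of these markers was not tested. Of 74 tested cytosolic genes in r4 60100 females, 5 were lower in FOXO RNAi at 0.7 M and none higher, 9 were higher and 9 lower in p53 RNAi, 6 higher and 11 lower in Stat92E RNAi, and 8 higher and 3 lower in controls. Over all genes 17.9% were higher and 20.7% lower in FOXO RNAi, 21.1% and 16.9% in p53 RNAi, 20.6% and 15.2% in Stat92E RNAi, and 18.7% and 12.4% in controls. Differences between the 2 sets were not tested.

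**Figure D5:**
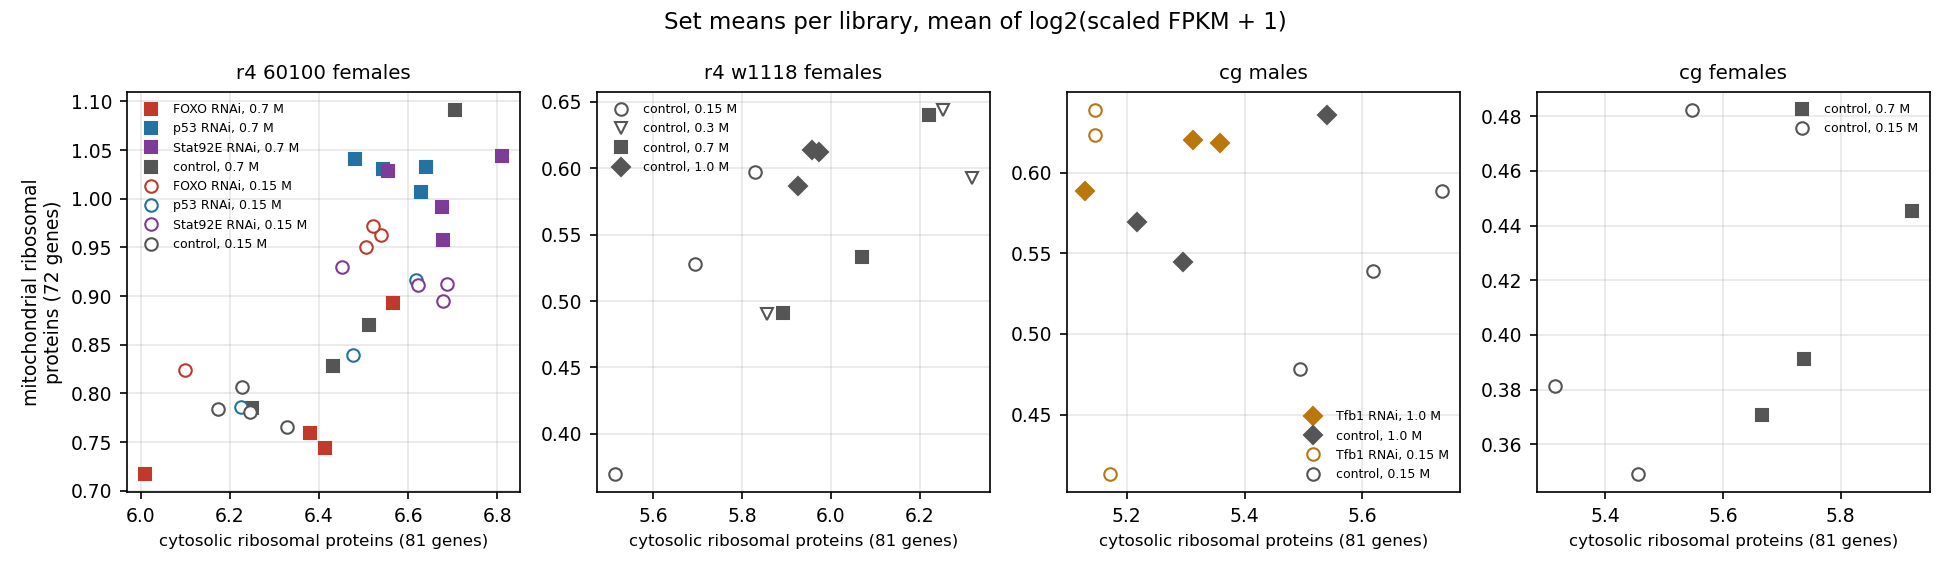
Set mean of the 72 mitochondrial ribosomal protein genes (y axis) against that of 81 cytosolic ribosomal protein genes (x axis), both as mean log2(scaled FPKM + 1), 1 point per library and 1 panel per experiment; filled marks are 0.7 M or 1.0 M, open marks lower sucrose. In cg males the Tfb1 RNAi libraries at 0.15 M lie left of the controls at 0.15 M, while their mitochondrial set means span 0.413 to 0.639.

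Other nuclear genes for mitochondria were counted from lists written from textbook knowledge. Of the nuclear genes of the respiratory chain and ATP synthase, 29 of 41 tested rose at 1.0 M in r4 w1118 females and none fell (median change 0.64), while none of the 9 tested mitochondrial ribosomal protein genes was called (median 0.12, and -0.01 with the length trend removed). Of all genes 12.6% rose in that comparison, 4 of 6 gut markers fell (2.97 to 6.09 at 1.0 M, 49.3 to 135 at 0.15 M), and 3 of 10 fat body markers rose and 2 fell. The part of these markers was not tested. At 0.3 M 7 of 41 rose, against 6.34% of genes, and at 0.7 M 10 of 41, against 11.3%. In r4 60100 females 2 of 42 rose and 1 fell at 0.7 M in FOXO RNAi, 2 rose and 2 fell in p53 RNAi, 2 rose and 1 fell in Stat92E RNAi, and 5 rose and none fell in controls. In the FOXO difference between diets 1 rose, Cyt-c-p, the cytochrome c gene (0.52 ± 0.16), and 1 fell, SdhC, a subunit of succinate dehydrogenase (-0.76 ± 0.24). Few genes of mitochondrial translation (2) and of mitochondrial DNA maintenance (2) reached the filter in r4 60100 females. In the translation list EfTuM, the elongation factor that delivers transfer RNA, rose at 0.7 M in Stat92E RNAi (0.31 ± 0.11, adjusted p = 0.0248), and CG6412 fell at 0.7 M in FOXO RNAi (-0.24 ± 0.06, adjusted p = 0.00126). Of 7 import and chaperone genes, 2 fell in the FOXO difference, Tom7 of the outer membrane translocase (-0.73 ± 0.24) and Tim10 of the space between the membranes (-0.44 ± 0.14). tko rose at 0.7 M in controls (0.26 ± 0.09, adjusted p = 0.0346) and in p53 RNAi (0.27 ± 0.10, adjusted p = 0.0336), fell in FOXO RNAi (-0.28 ± 0.09, adjusted p = 0.0171) and was higher in FOXO RNAi than in controls at 0.15 M (0.38 ± 0.09, adjusted p = 0.00506).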

How the data were processed

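RNA of larval fat body was depleted of ribosomal RNA and sequenced on an Illumina HiSeq, per the labels. The submitters' processing notes name TopHat 1.3.2, Bowtie 0.12.7, Cufflinks 1.1.0 and the dm3 genome. The authors deposited FPKM values for 14659 genes in 61 columns; 62 samples are labelled, and p53 RNAi at 0.15 M has 3 columns used here. Of the columns, 18 were matched to a sample and 43 to a group, where library numbers are names. The male columns, and those of p53 RNAi at 0.15 M, carry r4 and D2 in their headings, but the labels give cg-GAL4 for males and were followed. Within an experiment every library had one fixed number of genes at or above 1 (2649 in cg males, 2080 in cg females, 2117 in r4 w1118 females, 2464 or 2465 in r4 60100 females), so the FPKM values the authors deposited had been scaled further. Depth is known only as an estimate from the steepest rise in the distribution of low values.

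The tests used limma 3.58.1 (R 4.3.3) on log2(FPKM + 1), with a pseudocount of 1, a mean per group, empirical Bayes with a trend, each experiment alone, for genes averaging 1 or more; p-values were two-sided and adjusted by Benjamini-Hochberg over all genes tested. The fit was tested on simulated data. Alternatives were a pseudocount of 0.1, no filter, a filter of 0.25, rescaling by median ratio, removal of a loess trend (span 0.75) on transcript length, a replicate block, other member subsets and leaving out each library. The members and lists were chosen with earlier results of these data known. The text names up to 4 called members per direction and comparison, or 2 where none was called, with the highest, lowest, most often called and paralogous members. Sequences are not used here.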

Additional observations from a re-analysis of the deposited data

Results flagged for a closer look

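Among groups of 4 libraries, 175 combinations of group and measure (the set mean, the members called in any comparison of r4 60100 females, and the 6 members of highest average level) were examined for a library far from the others by Dixon's test at its critical value; chance gives about 1 in 20, and 12 were found. In FOXO RNAi at 0.15 M library 2 stood below the others in the set mean (0.824, others 0.95 to 0.972), mRpL2 (0.984, others 1.6 to 1.69), mRpL36 (4.04, others 7.79 to 8.11), mRpL40 (0.793, others 1.29 to 1.37) and mRpL9 (1.16, others 2 to 2.05). In controls at 0.15 M library 2 was high for mRpL36 (7.27, others 4.6 to 4.97) and low for mRpL40 (0.731, others 1 to 1.03), and library 4 was near 0 for mRpL9 (0.000669, others 1.32 to 1.47). Library 2 was also low for mRpS16 in Stat92E RNAi at 0.15 M (1.7, others 2.27 to 2.31), for mRpS17 in FOXO RNAi at 0.7 M (0.581, others 0.993 to 1.07) and for mRpS14 in p53 RNAi at 0.7 M (1.04, others 1.76 to 1.81). In Stat92E RNAi at 0.7 M library 4 was high for mRpL40 (1.7, others 1.59 to 1.61).

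The effect of FOXO RNAi differed between the diets, by limma's test of the difference of 0.7 M minus 0.15 M, for mRpL9 (-1.09), mRpL46 (-0.64), mRpL51 (-0.59), mRpL52 (-0.57), mRpL10 (-0.52) and mRpS16 (-0.48), and for tko (-0.54), which lies outside the name pattern. These calls were not equally firm. In the 16 fits that left out 1 library, mRpL10 stayed called in 10, mRpL9 in 9 and mRpS16 in 4. mRpL46, mRpL51 and mRpL52 stayed called in all 16. With other settings of the fit mRpS16 stayed called in 1 of 7.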

How the results depend on the processing

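Most counts in this section are given without the share of all genes called at the same setting. A change in such a count alone is not a result about the members. With a pseudocount of 0.1 the members called numbered 1 in Tfb1 RNAi at 1.0 M and 1 in p53 RNAi at 0.7 M. With a pseudocount of 0.1 the set mean difference was 0.21 in cg male controls by diet, 0.27 in Tfb1 RNAi by diet, 0.12 in Tfb1 RNAi at 1.0 M, -0.074 in cg females, 0.37 in w1118 at 1.0 M, -0.37 in FOXO RNAi by diet, 0.35 in p53 RNAi by diet, 0.14 in Stat92E RNAi by diet, 0.29 in FOXO RNAi at 0.15 M, -0.28 in FOXO RNAi at 0.7 M, 0.24 in p53 RNAi at 0.7 M and 0.23 in Stat92E RNAi at 0.15 M. With no filter the members called numbered 2 in Tfb1 RNAi at 0.15 M, 1 in cg females, 3 in w1118 at 0.3 M, 2 in w1118 at 0.7 M, 5 in 60100 controls by diet, 15 in FOXO RNAi by diet, 1 in p53 RNAi at 0.15 M, 1 in p53 RNAi at 0.7 M, 3 in Stat92E RNAi at 0.15 M and 5 in Stat92E RNAi at 0.7 M. Over members averaging 1 or more the set mean difference was -0.11 in Tfb1 RNAi by diet, -0.037 in Tfb1 RNAi at 1.0 M, 0.19 in w1118 at 0.7 M, 0.25 in p53 RNAi by diet, 0.17 in Stat92E RNAi by diet, 0.13 in p53 RNAi at 0.15 M, 0.23 in Stat92E RNAi at 0.15 M and 0.21 in Stat92E RNAi at 0.7 M. After rescaling by median ratio the members called numbered 1 in Tfb1 RNAi at 1.0 M, 6 in 60100 controls by diet, 4 in FOXO RNAi by diet, 14 in p53 RNAi by diet, 1 in FOXO RNAi at 0.7 M and 0 in Stat92E RNAi at 0.15 M. Rescaling also moved the whole table. Of all genes 679 were then higher in 60100 controls by diet, against 471 before, and 708 in p53 RNAi by diet, against 533. After rescaling by median ratio the set mean difference was 0.25 in p53 RNAi by diet, 0.12 in Stat92E RNAi by diet and 0.16 in Stat92E RNAi at 0.15 M. With the length trend removed the members called numbered 1 in Tfb1 RNAi at 0.15 M, 0 in w1118 at 0.3 M, 2 in FOXO RNAi at 0.15 M, 2 in the FOXO difference, 1 in p53 RNAi at 0.7 M, 0 in Stat92E RNAi at 0.15 M and 3 in Stat92E RNAi at 0.7 M. With the length trend removed the set mean difference was 0.13 in Tfb1 RNAi at 0.15 M, 0.11 in Tfb1 RNAi at 1.0 M, -0.092 in w1118 at 0.3 M, -0.069 in w1118 at 0.7 M, -0.034 in 60100 controls by diet, 0.082 in p53 RNAi by diet, 0.044 in FOXO RNAi at 0.15 M, -0.035 in p53 RNAi at 0.15 M and -0.037 in Stat92E RNAi at 0.15 M. With the added 0.25 filter the members called numbered 1 in cg male controls by diet, 5 in Tfb1 RNAi at 0.15 M, 2 in cg females, 2 in w1118 at 0.3 M, 1 in w1118 at 0.7 M, 5 in 60100 controls by diet, 18 in FOXO RNAi by diet, 13 in p53 RNAi by diet, 7 in FOXO RNAi at 0.15 M, 10 in the FOXO difference, 1 in p53 RNAi at 0.15 M, 4 in p53 RNAi at 0.7 M, 3 in Stat92E RNAi at 0.15 M, 4 in Stat92E RNAi at 0.7 M and 1 in the Stat92E difference. With rescaling and the 0.25 filter the members called numbered 12 in 60100 controls by diet, 26 in p53 RNAi by diet, 11 in FOXO RNAi at 0.15 M, 6 in p53 RNAi at 0.7 M, 4 in Stat92E RNAi at 0.7 M and 1 in the Stat92E difference. With the length trend removed and the 0.25 filter the members called numbered 5 in 60100 controls by diet, 3 in the FOXO difference, 0 in Stat92E RNAi at 0.15 M and 5 in Stat92E RNAi at 0.7 M. Over members without exon overlap the set mean difference was 0.14 in p53 RNAi by diet and 0.15 in Stat92E RNAi at 0.15 M. Leaving out 1 library at a time, the members called ranged from 0 to 1 in Tfb1 RNAi by diet, 0 to 1 in Tfb1 RNAi at 0.15 M, 0 to 1 in Tfb1 RNAi at 1.0 M, 0 to 1 in the Tfb1 difference, 0 to 1 in w1118 at 0.3 M, 0 to 1 in w1118 at 0.7 M, 1 to 10 in 60100 controls by diet, 3 to 10 in FOXO RNAi by diet, 1 to 10 in p53 RNAi by diet, 4 to 8 in Stat92E RNAi by diet, 1 to 11 in FOXO RNAi at 0.15 M, 1 to 7 in FOXO RNAi at 0.7 M, 3 to 15 in the FOXO difference, 0 to 11 in p53 RNAi at 0.7 M and 0 to 10 in Stat92E RNAi at 0.7 M. The set mean difference then ranged from 0.019 to 0.075 in cg male controls by diet, -0.022 to 0.091 in Tfb1 RNAi by diet, -0.017 to 0.096 in Tfb1 RNAi at 0.15 M, 0.0065 to 0.052 in Tfb1 RNAi at 1.0 M, -0.029 to 0.037 in cg females, 0.013 to 0.13 in w1118 at 0.3 M, -0.008 to 0.11 in w1118 at 0.7 M, 0.042 to 0.16 in w1118 at 1.0 M, 0.044 to 0.15 in 60100 controls by diet, -0.19 to -0.13 in FOXO RNAi by diet, 0.15 to 0.21 in p53 RNAi by diet, 0.081 to 0.11 in Stat92E RNAi by diet, 0.13 to 0.18 in FOXO RNAi at 0.15 M, -0.15 to -0.049 in FOXO RNAi at 0.7 M, 0.029 to 0.094 in p53 RNAi at 0.15 M, 0.098 to 0.20 in p53 RNAi at 0.7 M, 0.12 to 0.14 in Stat92E RNAi at 0.15 M and 0.076 to 0.18 in Stat92E RNAi at 0.7 M. Without any 1 of its 8 libraries Stat92E RNAi at 0.15 M had 0 members called. Of the 45 calls 36 held after rescaling and 27 with the length trend removed, and no called change turned its direction under these settings. Leaving out mRpL36 moved no set mean difference by more than the spread between libraries. The cause of these shifts was not tested. Deviations of libraries with the same replicate number correlated at -0.0746 to 0.0884 in cg females, -0.2425 to 0.4007 in cg males and -0.2019 to 0.3726 in r4 w1118 females. Correlations between libraries of different numbers are not given, so these values do not show whether equal numbers mark paired libraries. With a replicate block 1 member was called in w1118 at 0.3 M and 0 in the other 8 comparisons, as without it. In r4 60100 females the headings number libraries only for p53 RNAi at 0.15 M, so the groups compared share no numbers and no block was fitted. Most members lie below a level of 1, where few fragments stand behind a value.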
